A study of Mus musculus with 16 samples.

Results

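Pairs whose RNA tag lay in the 5′ untranslated region (5′UTR) of a protein-coding RNA (pcRNA) were taken from the tables of significant RNA–chromatin interactions of Input and H3K27me3-RADIP. A pair was a member when its RNA tag was annotated as protein_coding and five_prime_UTR. This gave 14993 of the 1305107 Input pairs and 14396 of the 1415135 H3K27me3-RADIP pairs, 29389 of 2720242 in all. Both libraries came from mouse embryonic stem cells (mESCs) of the line PGK12.1, grown with serum and leukemia inhibitory factor and crosslinked with 1% formaldehyde. No genotype or drug treatment separated them. H3K27me3-RADIP was selected with an antibody against H3K27me3, and Input was a part of the same sonicated lysate set aside before the antibody was added, so the 2 conditions share lysates. By the labels each condition had 8 libraries, and the paper names 4 biological replicates of each. The deposited data held 1 merged table per condition, so no replicate error could be given and every test compared those 2 libraries, not the conditions. Intervals are 95% intervals on pairs and cover counting error only, because the replicates were merged. Without molecular identifiers, amplified copies could not be told from separate pairs, so even the counting error may be understated.

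RADIP joins an RNA to nearby chromatin DNA through a bridge adaptor, and a restriction enzyme then leaves a short tag of each. H3K27me3 is the histone mark laid down by Polycomb repressive complex 2 (PRC2) over silent chromatin. The 5′UTR is the part of an mRNA ahead of its coding sequence. It is the first stretch to leave RNA polymerase II and stays in the mature message, where the ribosome scans it, whereas introns are removed during or after transcription. Many mouse genes start in CpG islands, so their 5′UTRs are rich in G, C and CpG. A gene can also have several start sites, each with its own first exon.

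The following RNA tags are shown as examples, chosen after their values were seen, of tag positions that recurred in both libraries. Each of them gave between 26.2% (*Fgfr2*, H3K27me3-RADIP) and 70.8% (*Trappc9*, Input) of the 5′UTR pairs of its gene, and other positions, such as 1 in *Zfand5* and 1 in *Tmem131*, did so too. Each line gives 25 bases of the GRCm38 (mm10) genome in the direction of transcription from the inferred 5′ end of the tag, with CpG in capitals. The reads themselves were not used here, so splicing inside a tag cannot be seen.
*Agap1* (chr1:89455071-89455095, plus strand): taggggtgCGggCGgctgCGgCGCG
*Dst* (chr1:34237588-34237612, plus strand): tatttgttttgactgtctgCGaaat
*Fgfr2* (chr7:133123122-133123146, minus strand): gaCGaggtaagggCGggggtaccCG
*Tle4* (chr19:14597488-14597512, minus strand): CGCGtcaCGCGagaccCGcaggccc
*Rbm39* (chr2:156180018-156180042, minus strand): gattCGcttgggcctagaCGccctc
*Trappc9* (chr15:73058485-73058509, minus strand): caggatgagCGtcccCGactacatg
*Crebbp* (chr16:4213805-4213829, minus strand): CGctCGcctctCGtctCGgcctccc
*Rps19* (chr7:24884969-24884993, plus strand): caccCGgcaactctgttggacctgc
*Myo1e* (chr9:70207435-70207459, plus strand): catcagggtgcatctctagacagtt
The tag of *Agap1*, which encodes an Arf GTPase-activating protein, was found in 46 Input and 49 H3K27me3-RADIP pairs. These pairs had 43 and 44 distinct DNA tag positions in 32 and 34 bins of 25 kb, so a single RNA position met many places on the chromosome. The tag of *Dst*, a cytoskeletal linker gene, was in 36 and 35 pairs. It lay 329363 bases from the start of the gene record, in an alternative first exon, and the position was also intronic in another transcript of the gene. The tag of *Fgfr2*, a fibroblast growth factor receptor gene, was in 26 and 17 pairs. Of its 25 bases, 19 lay past the end of the annotated first exon, chr7:133123141-133123350.

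The remaining recurrent tags lay inside annotated exons over all 25 bases. That of *Tle4*, a transcriptional corepressor gene, was in 23 Input and 20 H3K27me3-RADIP pairs. That of *Rbm39*, a splicing factor gene, was in 23 and 16 pairs, and that of *Crebbp*, a histone acetyltransferase gene, in 20 and 8. The tag of *Trappc9*, a vesicle trafficking gene, was in 17 and 19 pairs and made up 70.8% and 70.4% of all 5′UTR pairs of that gene. It was the only tag among these that did not lie in a first exon. The tag of the ribosomal protein gene *Rps19*, whose position was likewise also intronic in another transcript, was in 9 and 14 pairs, and that of the motor protein gene *Myo1e* in 11 and 8. Each printed tag occurred at 1 place in the genome when 26 bases were compared. Positions with at least 5 pairs held 4.87% of 5′UTR pairs in Input, against 0.970% of intron pairs and 1.53% of coding sequence (CDS) pairs. In H3K27me3-RADIP the values were 4.29%, 1.29% and 1.79%. Of the 89 such positions in Input, 76 were also found in H3K27me3-RADIP, and 71 of the 75 in H3K27me3-RADIP were found in Input. Most tag positions had a single pair, 86.5% of the 12406 Input positions and 82.4% of the 11522 H3K27me3-RADIP positions.

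The 5′UTR annotation of the tags was compared with the GENCODE M21 gene models, an older release on the same build. Of the pairs whose gene was found, 97.8% in Input and 97.5% in H3K27me3-RADIP lay in an annotated 5′UTR of that gene, and 90.5% and 90.0% in a first exon. The median distance from the start of the gene record was 356 and 387 bases. In 13.5% of Input pairs and 15.1% of H3K27me3-RADIP pairs the tag lay more than 25 kb from that start, as the *Dst* tag did. In 35.0% and 36.2% the position was also intronic in another protein-coding transcript of the gene, so the 5′UTR label of these tags, the printed *Dst* and *Rps19* tags among them, is uncertain. Tags of 5′UTRs were rich in G and C, with a median of 68% in both libraries, compared with 52% for CDS tags and 48% for intron tags. At least 1 CpG was present in 81.6% and 80.6% of distinct 5′UTR tag positions, whereas 23.2% and 23.3% of intron positions had one.

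Tag positions near the end of an exon were also counted. The 25 genome bases from a tag that began 1 to 24 bases before the end of its exon run into the intron, and those from a tag that began 25 to 48 bases before it stay inside. In Input 683 distinct pairs ran over and 893 stayed inside, a ratio of 0.765 (0.691–0.846). In H3K27me3-RADIP the numbers were 569 and 784, a ratio of 0.726 (0.650–0.810). For CDS tags the ratios were 0.878 (0.846–0.912) and 0.899 (0.865–0.933). The 5′UTR ratio lay below that of CDS tags in both libraries, a difference that was not tested. Tags were aligned to the genome, and how tags that cross a spliced junction were treated cannot be read from these tables, so the ratio is no measure of the spliced share and does not show that any tag was unspliced.

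The cell type was checked with its markers over all regions of pcRNAs. Of 15 mESC markers, 9 were present, with 3755 Input and 3963 H3K27me3-RADIP intron pairs, and *Dppa4*, *Dppa5a*, *Nanog*, *Pou5f1*, *Tdgf1* and *Utf1* had no pair. Most of these intron pairs came from *Esrrb*, with 2177 and 2279, and *Tet1*, with 1053 and 1122, so the sums say little about the other markers. Endoderm markers had 27 and 47 intron pairs (2 of 6 markers present), trophoblast markers 0 and 7 (1 of 5), fibroblast markers 7 and 5 (2 of 7), and neural markers 4 and 20 (2 of 4). Repeats of another pair's 2 tag positions accounted for 6.68% of the Input 5′UTR pairs and 10.5% of the H3K27me3-RADIP ones.

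The number of 5′UTR pairs per RNA was small for most genes and large for few. In Input 3597 of 9288 pcRNA names (38.7%) had a 5′UTR pair, and in H3K27me3-RADIP 3564 of 9606 (37.1%) had one. The median was 2 pairs per name in both. A single pair was found for 1418 and 1409 names, and 297 and 298 names had at least 10. The names found in both libraries numbered 2259, which was 62.8% of the Input names and 63.4% of the H3K27me3-RADIP names. The 1338 and 1305 names found in 1 library had a median of 1 pair, and most of them, 1133 and 1040, were listed in the other library through other regions of the RNA. Of the combinations of an RNA and a 25-kb bin that held a 5′UTR tag, 99.2% in Input and 99.0% in H3K27me3-RADIP also held an intron tag of that RNA. The adjusted *P*-value of the tables belongs to the whole combination, so a 5′UTR pair was listed only where all tags of its RNA together passed in that bin.

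The ranking was led by *Agap1*, followed in Input by *Magi1* and *Qk*. *Agap1* (ENSMUSG00000055013.16; chr1:89454806-89897617, plus strand) had the most 5′UTR pairs, 120 in Input and 133 in H3K27me3-RADIP. *Magi1* (chr6:93675455-94283917, minus strand), a scaffold protein of cell junctions, had 107 and 71. *Qk* (chr17:10202601-10319854, minus strand), an RNA-binding regulator of splicing, had 94 and 95. *Jade1*, a subunit gene of a histone acetyltransferase complex, had 91 and 44. *Dst* had 86 and 75, *Fgfr2* 77 and 65, *Tead1*, a transcription factor gene of the Hippo pathway, 71 and 50, *Ext1*, a heparan sulfate synthesis gene, 67 and 66, and *Tle4* 67 and 43.
In H3K27me3-RADIP 4 further genes entered the highest 10. *Jarid2*, a PRC2 cofactor gene, went from 62 Input pairs to 86. The deubiquitinase gene *Usp48* had 48 and 80, the corepressor gene *Tle3* 46 and 79, and the bromodomain gene *Brd2* 56 and 77. Of these 13 genes, 7 had fewer pairs and 6 had more in H3K27me3-RADIP, and of the 13 only *Jade1* passed the test between libraries.

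**Figure D1:**
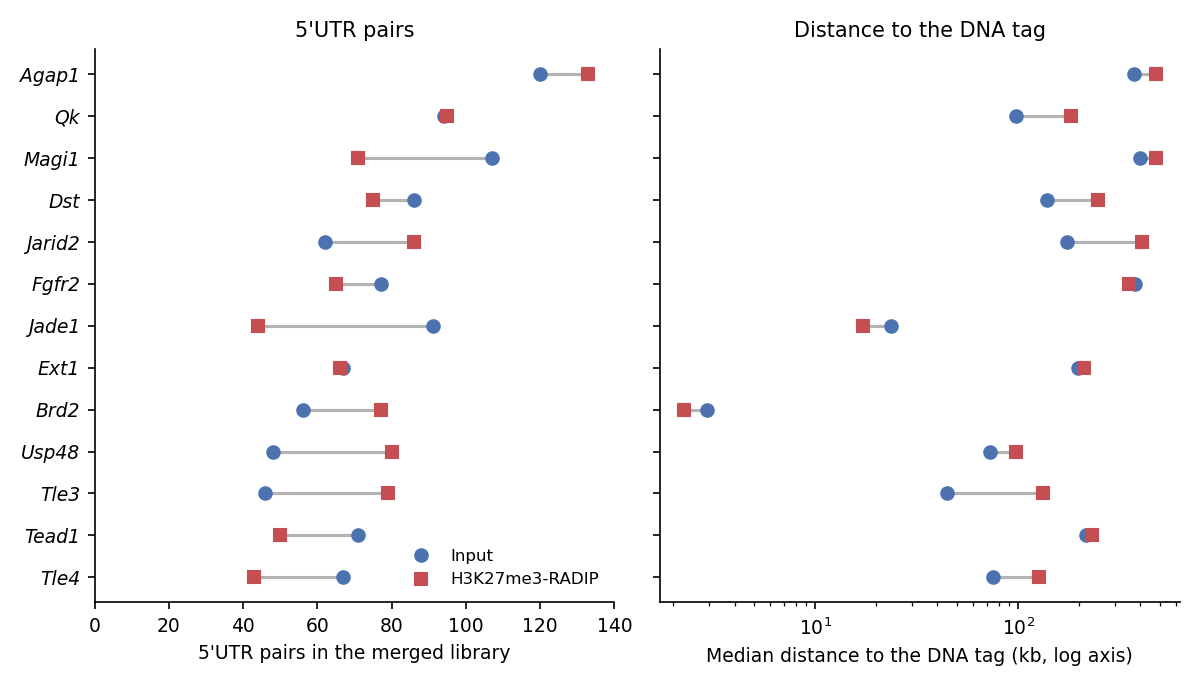
The 13 genes named above among those with the most 5′UTR pairs in Input (circles) or H3K27me3-RADIP (squares). Left, number of 5′UTR pairs in the merged library. Right, median distance to the DNA tag in kb on a log axis. Medians were 2.91 and 2.24 kb for *Brd2*, 372 and 478 kb for *Agap1* and 399 and 476 kb for *Magi1*.

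These genes differed in how far their 5′UTR tags reached. The 5′UTR of *Agap1* paired at a median distance of 372 kb in Input, against 478 kb with the antibody, and 107 of 120 and 113 of 133 pairs were more than 100 kb away. Only 3 pairs in each library lay in the bin of the tag. The introns of *Agap1* had medians of 371 and 386 kb. *Magi1* was similar, with medians of 399 and 476 kb. The 5′UTR tags of *Jarid2* had medians of 175 and 409 kb in the respective libraries, and pairs over 100 kb numbered 41 of 62 and 67 of 86. For *Qk* the medians were 97.1 and 182 kb.
*Brd2*, a gene of 10.6 kb, stood at the other end. Its 5′UTR tags had medians of 2.91 and 2.24 kb, none was over 100 kb away, and 52 of 56 and 57 of 77 lay in the bin of the tag. *Brd2* was also unlike the others in having more 5′UTR pairs than intron pairs, of which there were 25 and 56. *Agap1* by comparison had 5700 and 7480 intron pairs, or 21.1 and 17.8 5′UTR pairs per 1000 intron pairs. *Zfp644*, a zinc finger gene, had 23 and 33 5′UTR pairs with no intron pair listed under its name.

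The first comparison asked whether H3K27me3 selection changed the share of 5′UTR tags among pcRNA pairs. The share was 1.19% (1.17–1.21) of 1261178 pcRNA pairs in Input and 1.06% (1.04–1.08) of 1359456 in H3K27me3-RADIP. H3K27me3-RADIP minus Input came to -0.130 percentage points, with an interval from -0.155 to -0.104 (2-sided chi-square test, *P* = 1.97e-23). The share was lower on 20 of 20 chromosomes. At this depth 3 pairs are 0.000238% of pcRNA pairs in Input and 0.000221% in H3K27me3-RADIP. Within the same RNA names the odds of a 5′UTR tag against an intron tag were 0.928 times those of Input (0.906–0.951; Mantel–Haenszel chi-square test over 4393 names, *P* = 1.76e-09). With intron tags limited to the 25-kb bins that held a 5′UTR tag of the RNA the ratio was 0.943 (0.919–0.968). Tags at positions that were also intronic in another transcript were counted as 5′UTR tags throughout, and no alternative left them out.
The ratio depended on distance. For pairs over 100 kb apart it was 0.872 (0.836–0.909), and for pairs 10 to 100 kb apart 0.900 (0.865–0.936). For pairs 1 to 10 kb apart the interval included 1, at 0.951 (0.896–1.01; same chi-square test, *P* = 0.106). For pairs under 1 kb apart the direction turned, with a ratio of 1.14 (1.05–1.24; same chi-square test, *P* = 0.00250).

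**Figure D2:**
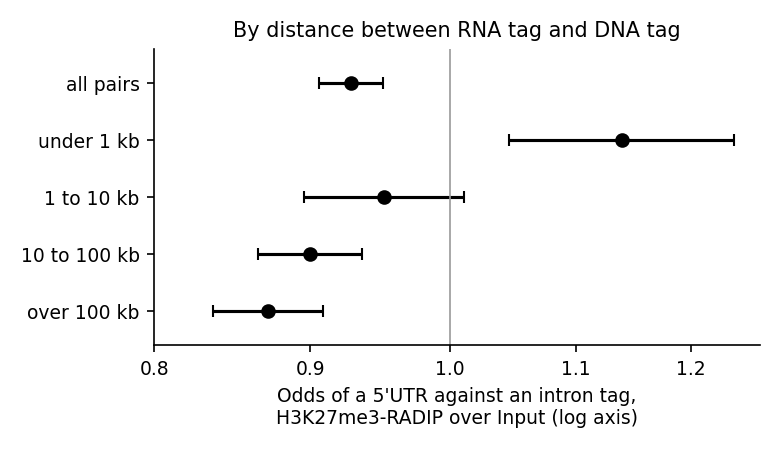
Odds of a 5′UTR tag against an intron tag of the same RNA in H3K27me3-RADIP relative to Input (x axis, log scale), for all pairs and by distance between RNA tag and DNA tag. Points are Mantel–Haenszel odds ratios and bars are 95% intervals for counting error. The ratio lies above 1 under 1 kb, at 1.14, and below 1 over 100 kb, at 0.872.

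Distances of 5′UTR pairs were longer in H3K27me3-RADIP. Input had a median of 33.7 kb (quartiles 6.33 and 131 kb). H3K27me3-RADIP had 45.9 kb (7.55 and 168 kb), 1.36 times as long, where the intervals of both medians allow 1.25 to 1.5 times. The median was longer on 19 of 20 chromosomes. Among 200 names with at least 10 5′UTR pairs in each library, 142 had a longer median in H3K27me3-RADIP. Long-range pairs, over 100 kb apart, were 29.7% (29.0–30.5) of the Input 5′UTR pairs and 35.2% (34.4–36.0) of the H3K27me3-RADIP ones. The gain was 5.48 points (4.41–6.55; 2-sided chi-square test, *P* = 1.14e-23) and was seen on 20 of 20 chromosomes. Over combinations listed in both libraries it was 3.10 points (1.96–4.24). Pairs over 1 Mb apart made up 1.94% and 3.04%.
Pooled over names, intron tags of the same names had longer medians of 69.4 and 109 kb. Within names the odds of a pair over 100 kb were nevertheless higher for 5′UTR tags, by 1.21 times (1.16–1.26) in Input and 1.13 times (1.08–1.18) in H3K27me3-RADIP. The 5′UTR had the longer median in 171 of 288 names in Input and in 145 of 294 in H3K27me3-RADIP. Intron tags in the bins that held a 5′UTR tag of their RNA lay closer to the 5′UTR values, with medians of 36.5 and 58.3 kb. CDS tags had medians of 36.0 and 56.7 kb and 3′UTR tags of 14.5 and 23.4 kb. Against intron tags of those bins the within-name odds ratios were 1.2 (1.15–1.26) and 1.13 (1.08–1.18). The pooled shares over 100 kb of those intron tags, 31.4% and 39.7%, lay above the 5′UTR shares, so the pooled comparison and that within names differed in direction. Against introns of the same names the odds ratio of H3K27me3-RADIP was 0.935 times that of Input (0.881–0.993; Mantel–Haenszel chi-square tests, *P* = 0.0285, adjusted over 36 values 0.0380). Against introns of those bins it was 0.939 times, with an interval that included 1 (0.881–1.001).

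**Figure D3:**
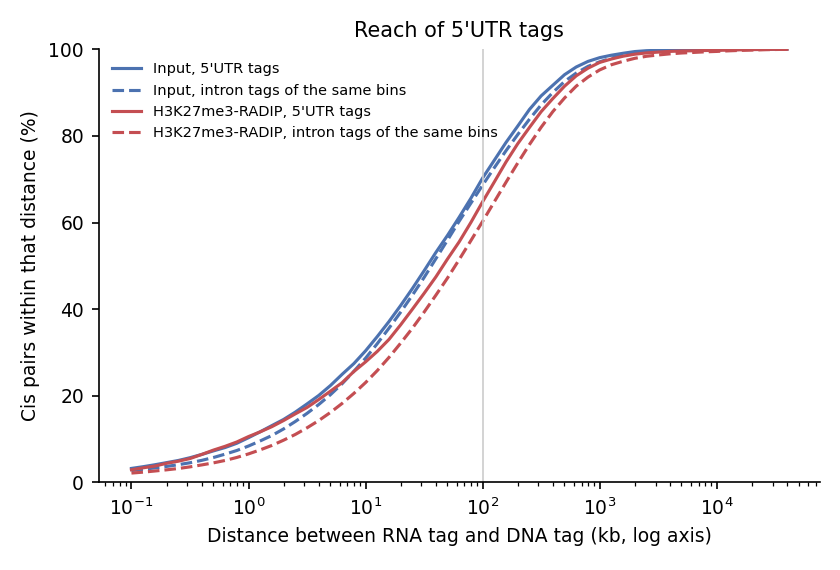
Cumulative share of *cis* pairs (y axis, %) against the distance between RNA tag and DNA tag (x axis, kb, log scale) for 5′UTR tags (solid) and intron tags of the same RNA in the 25-kb bins with a 5′UTR tag (dashed). The grey line marks 100 kb. Under 1 kb both libraries had about the same share of 5′UTR pairs, 10.3% and 10.6%, and beyond that the H3K27me3-RADIP curve lay to the right.

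The own-bin share counts pairs whose DNA tag lay in the 25-kb bin of the RNA tag. It was 31.8% (31.0–32.5) for Input and 29.3% (28.6–30.05) for H3K27me3-RADIP. The change was -2.49 points, with an interval from -3.54 to -1.44 (2-sided chi-square test, *P* = 3.68e-06), and 18 of 20 chromosomes moved in this direction. It was -4.03 points over RNA names with 5′UTR pairs in both libraries and -4.97 points when either neighbouring bin was counted too. Intron tags of the same names had 22.3% and 17.8%, CDS tags 31.1% and 26.03%, and 3′UTR tags 43.1% and 37.2%. Within names, however, the odds of an own-bin pair were lower for 5′UTR tags than for intron tags, with ratios of 0.727 (0.697–0.758) in Input and 0.814 (0.777–0.851) in H3K27me3-RADIP. Against intron tags of the bins with a 5′UTR tag the ratios were 0.967 (0.924–1.01; Mantel–Haenszel chi-square test, *P* = 0.151) and 0.973 (0.927–1.02, *P* = 0.279), so no difference was shown.
Very short pairs depended on the comparator. The odds of a pair under 1 kb, against intron tags of the same bins, were 0.988 (0.928–1.05) in Input and 1.14 (1.06–1.21) in H3K27me3-RADIP, and the latter was 1.15 times the former (1.05–1.26). Against all introns of the same names the odds were 0.917 (0.864–0.973) and 1.1 (1.03–1.17). Against CDS tags they were 0.859 (0.794–0.929) and 0.940 (0.864–1.02), and the ratio of these, 1.09, had an interval that included 1 (0.976–1.23).
Single genes moved in both directions. *Hnrnpf*, a splicing regulator gene with 51 Input and 47 H3K27me3-RADIP pairs, had 36 own-bin pairs in Input and 16 in H3K27me3-RADIP, and its median went from 10.4 to 35.7 kb. *Jade1* had 36 of 91 and 21 of 44 pairs in its own bin, with medians of 23.6 and 17.2 kb. These per-gene shares were not tested.

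DNA tags lay mostly downstream of the 5′UTR tag in the sense of transcription, 75.8% (75.2–76.5) of Input *cis* pairs and 71.4% (70.7–72.2) of those in H3K27me3-RADIP. The change was -4.43 points, with an interval from -5.43 to -3.42 (2-sided chi-square test, *P* = 7.07e-18). Intron tags of the same names had 59.6% and 58.2%, and intron tags of the same bins 66.1% and 63.1%. Within names the odds of a downstream DNA tag were 1.44 times (1.38–1.5) those of intron tags of the same bins in Input and 1.31 times (1.26–1.36) in H3K27me3-RADIP. The second odds ratio was 0.912 times the first (0.860–0.967). A 5′UTR tag lies ahead of most introns of its RNA, so a DNA tag in the gene body counts as downstream of it more readily. The direction of these odds ratios was thus set in part by position alone. Beyond 100 kb 68.4% of Input and 65.1% of H3K27me3-RADIP 5′UTR pairs were still downstream, compared with 55.9% and 55.35% of intron pairs of the same bins and 51.1% and 51.5% of intron pairs of the same names.
DNA tags were also placed against the body of the gene that made the RNA. Of the *cis* pairs with a gene record in M21, 60.5% (59.7–61.3) of those from Input and 50.8% (49.95–51.6) of those from H3K27me3-RADIP had their DNA tag inside that gene. The change was -9.73 points, with an interval from -10.9 to -8.59 (2-sided chi-square test, *P* = 3.53e-63). DNA tags beyond the gene end rose from 20.1% to 25.8% (5.69 points, 4.73–6.65, chi-square *P* = 4.07e-31) and those upstream of the gene start from 19.4% to 23.4% (4.03 points, 3.10–4.97, *P* = 3.24e-17). Outside the gene body, the tags beyond the gene end were 51.0% (49.7–52.3) in Input and 52.5% (51.3–53.7) in H3K27me3-RADIP. For intron tags of the same bins these shares were 50.2% (49.9–50.6) and 51.2% (50.9–51.5). For intron tags of the same bins the gene body held 55.4% and 45.6%.

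**Figure D4:**
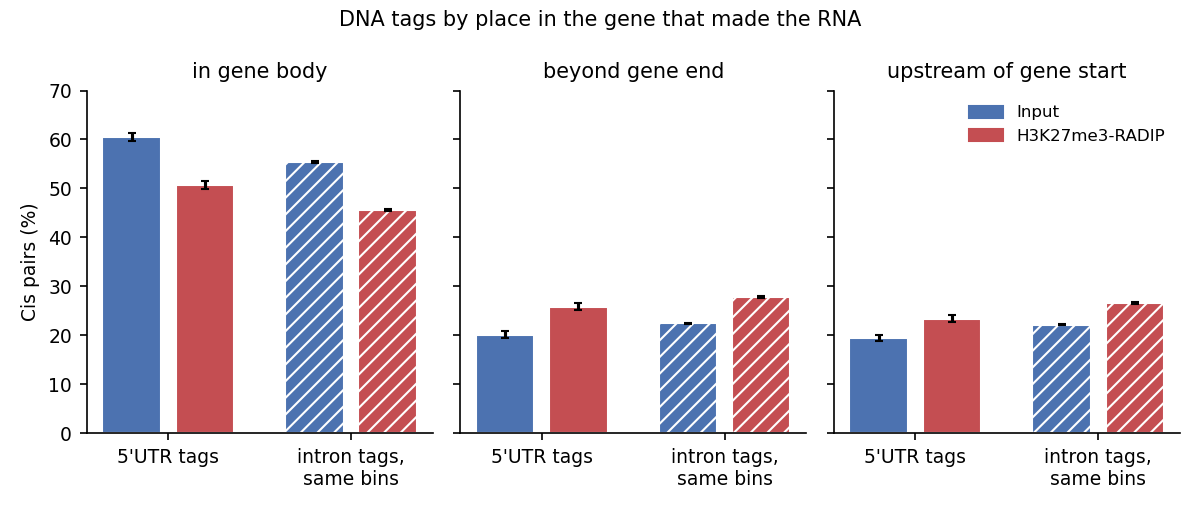
Share of *cis* pairs (y axis, %) whose DNA tag lay in the body of the gene that made the RNA, beyond its end or upstream of its start, for 5′UTR tags (plain bars) and intron tags of the same RNA in bins with a 5′UTR tag (hatched bars). Bars are shares of the merged libraries and error bars are 95% Wilson intervals. The gene body share of 5′UTR pairs was 60.5% in Input and 50.8% in H3K27me3-RADIP.

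The genes with the most pairs showed the same kind of spread. *Agap1* had 65 of 120 Input and 44 of 133 H3K27me3-RADIP DNA tags in its gene body, 33 and 55 beyond its end and 22 and 34 upstream. *Qk* had 46 of 94 and 23 of 95 in its gene body, and *Magi1* 61 of 107 and 28 of 71. *Jarid2* had 30 of 62 and 23 of 86 in its gene body, 6 and 24 beyond its end and 26 and 39 upstream. *Fgfr2* had 48 of 77 and 38 of 65 within a gene record of 2961 kb. In *Usp48* the numbers were 14 of 48 and 17 of 80. The gene body share was lower in H3K27me3-RADIP for 12 of these 13 genes and higher for *Jade1*, and these single shares were not tested.

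Few *trans* pairs were listed in these tables, which hold only combinations that passed the authors' background model, so their number before that filter cannot be read here. A single 5′UTR pair per library was on another chromosome, from *Enah* on chromosome 1 in Input and from *Rbpms* on chromosome 8 in H3K27me3-RADIP, and both met the same bin, chr11:3150001-3175000. That bin held 37 of the 37 *trans* pairs of pcRNAs in Input and 261 of 341 in H3K27me3-RADIP, from 4 and 23 RNA names. The lowest detectable share, taken as 3 pairs, is 0.0200% of the Input 5′UTR pairs and 0.0208% of the H3K27me3-RADIP ones.

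Pair counts of single RNAs were then compared between the libraries. An exact negative binomial test was run over all 13806 regions of pcRNAs with at least 10 pairs. A region was called when its adjusted *P* was no more than 0.1 and its log2 fold change was 0.5 or more in either direction. By this rule 24 of 738 RNA names (3.25%) changed in their 5′UTR pairs, 3 upwards (0.407%) and 21 downwards (2.85%). Over all regions 14.3% were called, 7.14% higher and 7.21% lower, and over introns 20.6%. Introns have more pairs, with a median of 60 per tested name against 16 for 5′UTRs. With at least 20 pairs 3.23% of 5′UTRs and 17.6% of introns were called. The median log2 fold change was -0.07 for 5′UTRs, 0.02 for introns and -0.02 for all regions.
The test rests on an assumed coefficient of variation of 0.1 and called 49 names at 0, 8 at 0.2 and 0 at 0.4, where 13 had an unadjusted *P* under 0.05. Counting repeated tag positions once gave 14 calls, of which 4 were higher and 10 lower, and pairs with q of at most 0.01 gave 26, of which 10 were higher and 16 lower.

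The 21 lower names were genes of several functions. The 5′UTR of *Jade1* fell from 91 to 44 pairs (log2 fold change -1.06, exact test, adjusted *P* = 0.0182). *Wnk1*, a kinase gene of ion transport, fell from 39 to 9 (-2.07, exact test, adjusted *P* = 0.00178). *Huwe1*, a ubiquitin ligase gene, fell from 30 to 8 (-1.86, exact test, adjusted *P* = 0.0118), and *Srcap*, a chromatin remodeller gene, from 24 to 8 (-1.54, adjusted *P* = 0.0645). *Rbm39* fell from 53 to 25 (-1.09, exact test, adjusted *P* = 0.0558), and *Msi2*, an RNA-binding protein gene, from 20 to 5 (-1.92, adjusted *P* = 0.0383).
Smaller counts fell for *Osbpl1a*, from 18 to 5 pairs, and *Smcr8*, from 16 to 4. *Osbpl1a* was no longer called with repeated positions counted once (exact test, adjusted *P* = 0.154) or at q of at most 0.01 (0.117). *Smcr8* had a log2 fold change of -0.53 at q of at most 0.01 and was not called there (exact test, adjusted *P* = 0.955). *Tbl1xr1*, a corepressor subunit gene, fell from 16 to 2, and *Atrx*, a chromatin remodeller gene, from 14 to 3. *Lnpep* fell from 14 to 1, *Phf3* from 14 to 2, *Maff* and *Usp6nl* from 12 to 2 each, and *Cul1* from 11 to 1. *Eif4g1*, *Hhip*, *Lrp6*, *Sumo3* and *Tle1* fell from 9 to 1 each. *Rpl15*, a ribosomal protein gene, had 10 pairs in Input, all in the bin of the tag, and 0 in H3K27me3-RADIP. With a floor of 3 pairs in place of the 0, the fall was 3.37-fold, without the counting error of the 10 pairs.
The names that rose were *Tmem132d*, a membrane protein gene, from 6 to 22 pairs (log2 fold change 1.77, exact test, adjusted *P* = 0.0555), *Dlgap4*, a synaptic scaffold gene, from 1 to 11, and *Igsf3*, from 0 to 11. With that floor in place of the 0, the rise of *Igsf3* was 3.62-fold. Only 9 of its 11 pairs were distinct, so with repeated positions counted once it was under the minimum of 10 pairs and not tested. At a coefficient of 0.2, *Jade1*, *Msi2*, *Osbpl1a*, *Smcr8* and *Tmem132d* were among the names no longer called. Names outside the rule for named genes were given because they were called, after their values were seen.

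The 5′UTR counts were set beside the intron counts of the same RNA. Of the 23 called names whose introns were tested, 20 had an intron fold change of the same sign and *Msi2*, *Sumo3* and *Maff* one of the opposite sign. The 7 whose introns were also called all had the same direction, among them *Lnpep*, *Cul1*, *Huwe1*, *Rbm39* and *Tmem132d*. Over 722 names with both values, 446 had the same sign. A Fisher exact test of 5′UTR against intron pairs per name called 3 of 722 (0.416%), compared with 2 of 2440 CDS (0.082%) and 0 of 1948 3′UTRs. All 3 were lower in the 5′UTR. *Msi2* fell from 20 to 5 5′UTR pairs, while its intron pairs were 5292 and 7137 (log2 odds ratio -2.33 ± 0.69 SE). *Wnk1* fell from 39 to 9 with 590 and 485 intron pairs (-1.77 ± 0.53). *Magi1* had 107 and 71 with 5546 and 6358 intron pairs (-0.79 ± 0.22). The adjusted *P* was 0.0861 for each. No name was called once repeated positions were counted once or q was limited to 0.01, and 1 was called against intron tags of the same bins. Without adjustment 50 names had *P* under 0.05.

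**Figure D5:**
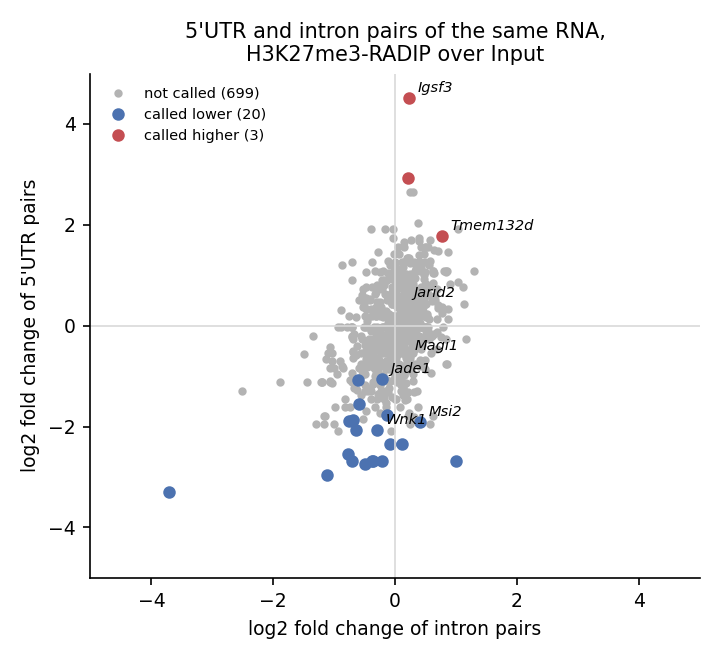
Log2 fold change (H3K27me3-RADIP over Input) of 5′UTR pairs (y axis) against that of intron pairs (x axis) for 722 RNA names, 1 point per name. Names called lower in their 5′UTR are blue and names called higher are red. Most called names lie on the same side of 0 for introns, and *Msi2* is among those that do not.

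Gene groups were described by the numbers of their members, beside 3.25% called over all tested 5′UTRs and 14.3% over all tested regions. Of all 4902 names with a 5′UTR pair, 2267 (46.2%) had fewer in H3K27me3-RADIP. Of 12 PRC2 genes, 7 had 5′UTR pairs, 104 in Input and 103 in H3K27me3-RADIP, and of the 4 tested none was called. *Jarid2* carried most of them, with 62 and 86 pairs (log2 fold change 0.45, exact test, adjusted *P* = 0.442). The other 6 members all had fewer pairs in H3K27me3-RADIP, 42 in Input and 17 in H3K27me3-RADIP together, and their intron pairs were 988 and 627. *Mtf2*, a PRC2 accessory subunit gene, had 12 and 6. The core subunit genes *Suz12* and *Eed* had 6 and 1, and 4 and 2. Of 22 PRC1 genes, 12 had 5′UTR pairs, 38 and 45 in all, and neither of the 2 tested was called. *Cbx7*, a reader of H3K27me3, had 10 and 20 (0.95, exact test, adjusted *P* = 0.396), and *Bcor*, a corepressor subunit gene, had 7 and 13 (0.83, adjusted *P* = 0.612). The other 10 members had 21 and 12 pairs together, with fewer in H3K27me3-RADIP for 8 of them, and their intron pairs were 1570 and 1765. *Jarid2*, *Cbx7* and *Bcor* were set apart after their values were seen, so the counts of the remaining members are descriptions.
Of 15 pluripotency genes, 7 had 5′UTR pairs, 20 in each library. *Tet1*, a 5-methylcytosine dioxygenase gene, had 13 and 11. *Esrrb* had 2177 and 2279 intron pairs but 0 and 1 5′UTR pairs.
Genes of protein synthesis were represented by 36 ribosomal protein names with 141 and 136 pairs, of which 7 were tested and *Rpl15* alone was called, and by 24 translation factor names with 102 and 81 pairs, of which 7 were tested and *Eif4g1* alone was called. *Rps19* had 24 and 36 pairs, with medians of 3.99 and 22.5 kb, and *Rps15a* had 19 and 25. Ribosomal protein genes have many near-identical pseudogenes, and reads shared with them were removed by unique mapping. *Eif2s2*, a translation initiation factor gene, had 28 and 16.
Splicing factor genes, taken as names that start with Srsf, Snrp, Sf3 or Hnrnp and so without *Rbm39*, had 160 and 130 pairs over 29 names, with 0 of 4 tested called. *Hnrnpf* had the most of this list with 51 and 47. *Hnrnpab* had 21 and 19 and *Hnrnpk* had 18 and 21. Zinc finger genes had 305 and 346 pairs over 88 names, with 0 of 15 called. *Zfp704* had the most in both libraries, with 48 and 46 pairs. *Zfp644* had 23 and 33, *Zfp423* 17 and 35 and *Zfp532* 24 and 28, and *Zfp710* 27 and 24. Solute carrier genes had 246 and 239 pairs over 111 names, with 0 of 12 called, and *Slc6a6*, a taurine transporter gene, had 14 and 21. The 7 histone genes had 10 and 9 pairs. The median log2 fold change of the tested members was -0.75 for PRC2 (4 tested), 0.89 for PRC1 (2 tested), 0.32 for ribosomal proteins, -0.15 for translation factors, -0.15 for splicing factors, -0.02 for zinc finger genes and -0.33 for solute carriers, beside -0.07 over all tested 5′UTRs.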

How the data were processed

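RNA–DNA pairs of 1 merged Input and 1 merged H3K27me3-RADIP table were used, with groups taken from the labels. Per the labels' processing notes, CASAVA 1.8.2, STAR 2.5.0a and BWA 0.7.15-r1140 were used on mm10. The authors separated RNA and DNA tags, kept uniquely mapped pairs outside blacklisted regions, annotated RNA tags with GENCODE and fitted a modified CHiCANE model per RNA and 25-kb bin. The deposited values are p-values and q-values, and pairs with q above 0.1 had been removed. The tables hold no counts, so lines were counted (1305107 and 1415135 in all).

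The listed window was found to be centred on the 5′ end of the RNA tag: of 20000 sampled 5′UTR positions, 0.075% of the 26-base stretches starting there occurred more than once in GRCm38, against 0.875% for stretches starting 13 bases earlier. Distances were taken between window centres.

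Shares were compared by chi-square tests, and regions within RNA names by Mantel–Haenszel odds ratios. The odds ratios of the 2 libraries were compared by a z test on their logarithms. Counts per RNA and region were compared by an exact negative binomial test (TMM factor 0.936, trims of 30% and 5%, 0.5 pairs added for fold changes, Benjamini–Hochberg over all regions tested) and by Fisher exact tests. The negative binomial test was also run on simulated data, with an outcome that is not reported here. Python 3.11.15, numpy 2.4.6, pandas 2.3.3, scipy 1.17.1, numba 0.67.0, pysam 0.24.0 and matplotlib 3.10.9 were used.

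Named genes were the 10 with the most 5′UTR pairs per library, the 5 largest and smallest fold changes and odds ratios with at least 20 pairs, the 5 with the most pairs over 100 kb, the 5 with the most pairs in 1 library only, and list members with at least 20 pairs. Some of these are given as counts alone, and 1 gene among those with the most pairs is not reported here. The members and lists were chosen with earlier results of these data known. The comparisons with gene bodies, exon ends, CDS and recurrent positions were added after seeing the data.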

Additional observations from a re-analysis of the deposited data

How the results depend on the processing

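Of 63 alternatives run for the comparisons, 49 kept the direction and the side of the threshold or a count within 1.5 times. The 5′UTR-to-intron odds ratio was 1.14 for pairs under 1 kb apart, against 0.928, and 0.951 for pairs 1 to 10 kb apart. The own-bin odds ratio moved to 0.967 in Input and 0.973 in H3K27me3-RADIP against intron tags of the same bins. The ratio of median distances was 1.24, in place of 1.36, over combinations listed in both libraries, where the gain in pairs over 100 kb was 3.10 points, in place of 5.48. The own-bin change of -2.49 points was -4.03 over names with 5′UTR pairs in both libraries and -4.97 with neighbouring bins. The 5′UTR share differed by -0.747 points of exonic pcRNA pairs, against -0.130 of all pcRNA pairs. Changed 5′UTR names numbered 24 and became 14 with repeated positions counted once, 49, 8 and 0 at assumed coefficients of variation of 0, 0.2 and 0.4 (13 with an unadjusted *P* under 0.05 by the negative binomial test at 0.4), 9 with at least 20 pairs and 14 with no minimum. Names changed against introns numbered 3 and became 0 with repeated positions counted once (34 with an unadjusted Fisher *P* under 0.05), 0 at q of at most 0.01 (43 with such a *P*) and 1 against intron tags of the same bins. The causes were not tested. The names tested for a changed 5′UTR count numbered 279 with at least 20 pairs and 4902 with no minimum, against 738. For single genes, 48 of 68 alternatives kept the call and 20 lost it, and none changed direction. Settings in which a gene was not tested, such as *Igsf3* with repeated positions counted once, are not among the 68. *Smcr8* had a log2 fold change of -0.53 at q of at most 0.01. The share of DNA tags in the gene body, with alternatives chosen after seeing the data, differed by -9.55 to -10.2 points. Merged replicates limit every result to counting error, and the median was 2 5′UTR pairs per name. No paired analysis was possible because the libraries that share replicate numbers in the labels were merged into 1 table per condition.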
